A study of Mus musculus with 6 samples.

Results

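DNA methylation genes were followed in cells of the inguinal lymph node, a node that drains the flank, in a mouse model of multiple sclerosis. The 9 genes were taken by name from the table of 23307 genes, all 9 were present and all 9 passed the filter on low values, which kept genes averaging 10 or more normalized read counts. Their products maintain methylation (Uhrf1, Dnmt1), remodel chromatin for it (Hells, Cdca7), set it anew (Dnmt3a, Dnmt3b), oxidise it (Tet2, Tet3) or read it (Mbd2). SJL mice with experimental autoimmune encephalomyelitis (EAE) were sampled on day 3 after induction, and the groups were 3 mice given perampanel, an epilepsy medicine and antagonist of AMPA glutamate receptors, and 3 control mice. All 6 animals had EAE and the SJL genotype, the drug was given as a therapy per the labels, and the sources used here give no dose, route, age or control treatment. The nodes were meshed without a sort, so each library mixes every cell type of the node.

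Methylated cytosines in CpG pairs are copied at each DNA replication. UHRF1 binds the hemimethylated CpG behind the fork and marks histone H3, which brings in DNMT1, the enzyme that restores methylation on the new strand. HELLS, a remodeller of the SNF2 family, and its zinc finger partner CDCA7 open nucleosomes for this step, and loss of either causes an immunodeficiency with centromere instability in humans. In lymphocytes these enzymes are needed for clonal expansion and for keeping cytokine genes silent, and the genes of maintenance are known to be most active in S phase.

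Libraries held 1779724 to 2208589 reads assigned to genes, and every perampanel library (at most 2003726) was shallower than every control library (at least 2036072). Values below are read counts divided by 1 size factor per sample, called normalized read counts. T cell markers made up 5890 to 6345 CPM (read counts scaled to a common library depth) in controls and 6232 to 6502 under perampanel, summed over 8 genes. Of the 8, limma called 1, Trac, which was higher under perampanel (log2 fold change 0.16, adjusted p = 0.0304). The log2 fold change was positive in 5 of them and negative in 3. Markers of cycling cells (8 genes) summed to 471 to 600 CPM in controls and 212 to 369 under perampanel, without overlap, and all 8 were detected. All 8 had a negative log2 fold change (median -1.44) and an unadjusted limma p under 0.05, which 9.33% of tested genes had. Limma called 4 as lower, against 0.683% of tested genes: Rrm2 (log2 -2.49), Ccna2 (-2.18), Top2a (-1.43) and Mcm5 (-0.72). Perampanel 3 stood apart in the cycling markers. Mki67, a marker of dividing cells, was at 20.6 normalized read counts there, against 81.7 and 130 in the other perampanel libraries and 95.9 to 144 in controls. Markers of B cells (7 genes) summed to 29.8 to 57.5 CPM in controls and 24.7 to 35.5 under perampanel, with overlap. Summed markers of plasma, myeloid and dendritic, natural killer, stromal and vessel, and red cells overlapped between the groups too, at no more than 120 CPM for any list.

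The comparison of perampanel with control asks what the drug does to transcripts of the node. Genes for the hemimethylation reader Uhrf1 and for both partners of the remodeller, Hells and Cdca7, fell under perampanel, whereas Dnmt1, the de novo enzymes, the oxidases and Mbd2 did not pass the test. Uhrf1 had the largest change of the 9, with 2.97 times more in controls. With limma and Benjamini-Hochberg adjustment over all 9076 genes tested (threshold 0.05), 3 of the 9 fell and none rose, where 1.1% of all genes were called, 0.683% as lower and 0.419% as higher. The edgeR quasi-likelihood test on recovered whole reads called the 3 falls and no rise, with 1.17% of its genes called and 0.719% lower. The 3 were also those with an unadjusted limma p under 0.05, which 9.33% of tested genes had. The median log2 fold change of the 9 was -0.029, against 0.0014 for all genes tested. The same 3 genes had no overlap between groups, where 14.1% of tested genes had none, 6.9% as lower and 7.18% as higher. In RNA of a mixed node, fewer cells of a type and less RNA per cell cannot be told apart.

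**Figure D1:**
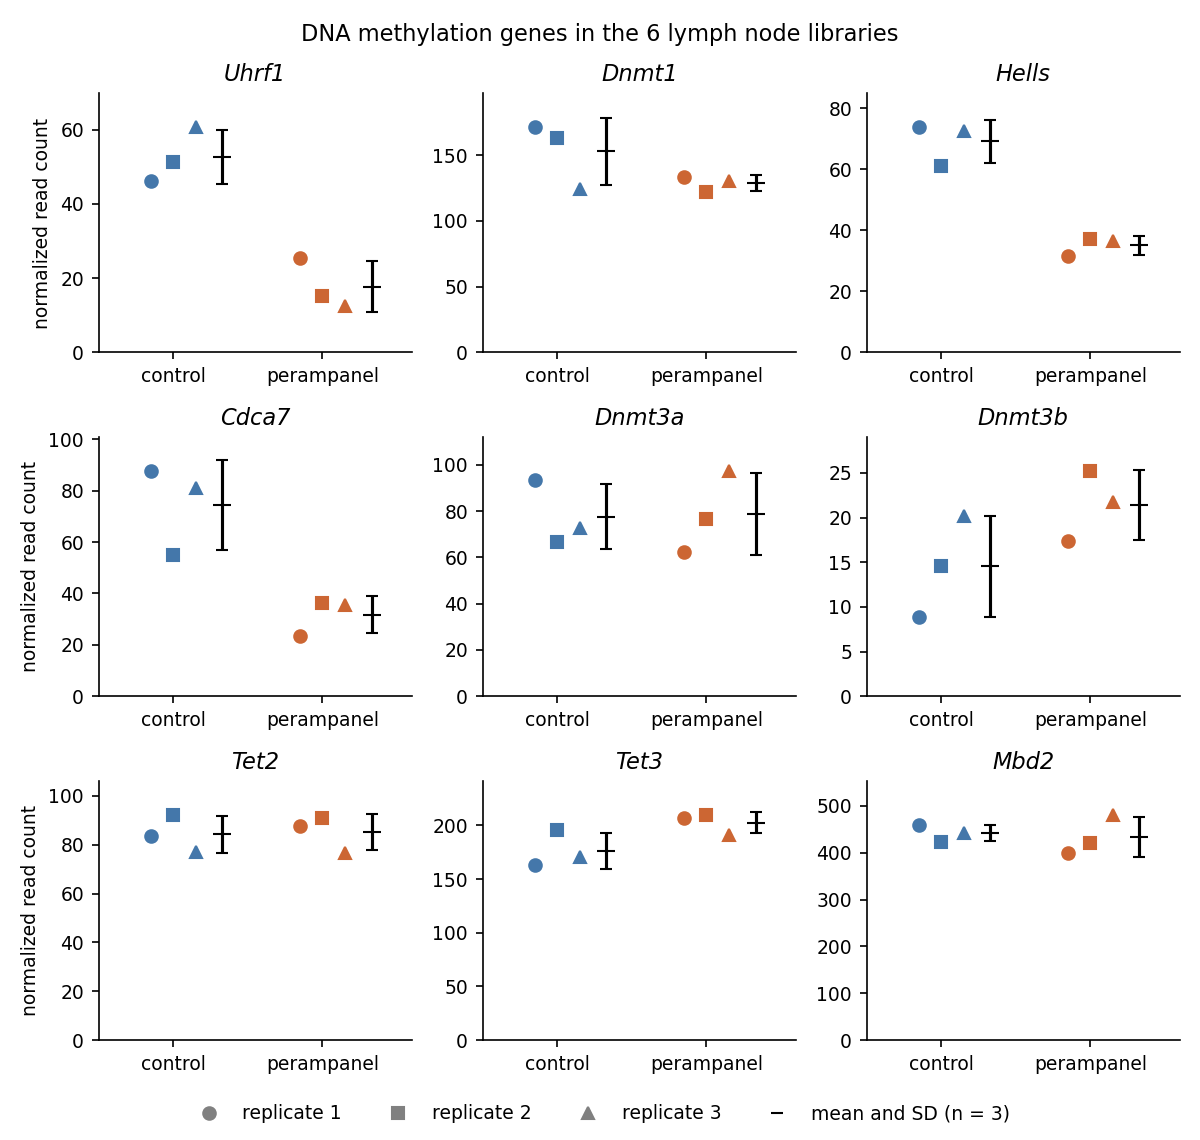
Normalized read counts (vertical axes, from 0) of the 9 DNA methylation genes in 3 control and 3 perampanel libraries. Marker shapes give the replicate number, and the bars beside them give mean and SD (n = 3); Uhrf1, Hells and Cdca7 are separated by group and the other 6 genes overlap.

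Uhrf1 (chromosome 17, 56303321 to 56323486, plus strand, GRCm38, protein-coding) was at 46.3, 51.1 and 60.6 normalized read counts in controls 1 to 3 and at 25.5, 15.1 and 12.6 in perampanel 1 to 3. The lowest control thus lay above the highest perampanel library. The mean fell from 52.7 ± 7.30 to 17.7 ± 6.84 (SD, n = 3 each), a log2 fold change of -1.57 ± 0.25 (SE, limma adjusted p = 0.000861). These values rest on 169 reads in the controls and 51 under perampanel, with 25, 15 and 11 in the single libraries, against a floor of 3 reads (1.36 to 1.69 CPM) that covers counting error only. Without perampanel 3 the fold change was -1.37 (limma adjusted p = 0.00231), and over the omission of each library in turn it ran from -1.85 to -1.37.

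Hells (chromosome 19, 38930915 to 38971051, plus strand, protein-coding) was at 73.8, 61.2 and 72.6 normalized read counts in controls and at 31.6, 37.3 and 36.6 under perampanel. The spread within each group was small beside the gap between them. The mean fell from 69.2 ± 6.96 to 35.2 ± 3.11 (SD, n = 3 each; log2 -0.95 ± 0.18, SE, limma adjusted p = 0.00442). Cdca7 (chromosome 2, 72476159 to 72486893, plus strand, protein-coding) was at 87.6, 54.8 and 80.8 in controls and at 23.5, 36.3 and 35.5 under perampanel, lowest in perampanel 1 as Hells was. Its mean fell from 74.4 ± 17.3 to 31.7 ± 7.19 (log2 -1.20 ± 0.21, limma adjusted p = 0.00204). Without perampanel 3, the log2 fold changes were -0.98 for Hells and -1.29 for Cdca7, and both were called by limma (adjusted p = 0.00614 and 0.00106).

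The ratio of Cdca7 to Hells within libraries differed by -0.25 on the log2 scale between the groups (0.08 ± 0.21 in controls, -0.17 ± 0.22 under perampanel, SD, n = 3 each), within the spread between replicates (two-sided exact permutation p = 0.3, and 0.4 after Benjamini-Hochberg adjustment over the 4 ratios tested). An unequal change of the partners was thus not detected with 3 libraries a group.

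In the authors' deposited table the log2 fold changes of perampanel over control were -1.56 ± 0.36 for Uhrf1, -0.98 ± 0.27 for Hells and -1.23 ± 0.29 for Cdca7 (standard errors of that table). The p-values of the authors' deposited table were 1.11e-05, 0.000315 and 2.69e-05, and it lists no adjusted p for these genes. DESeq2 on the recovered reads likewise gave them no adjusted p, as it gave one to 3759 genes only, of which it called 1.33%. With its filter on low means switched off, a choice made after seeing the data, DESeq2 called Uhrf1 (adjusted p = 0.0178) and Cdca7 (0.0274) and not Hells (0.124), where 0.145% of 19320 genes were called.

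Dnmt1, the maintenance methyltransferase (chromosome 9, 20907209 to 20959888, minus strand, protein-coding), was at 171, 163 and 124 normalized read counts in controls and at 134, 122 and 130 under perampanel. Control 3 lay among the perampanel libraries, and the other controls lay above them all. The means were 153 ± 25.3 and 129 ± 5.99 (SD, n = 3 each), with a log2 fold change of -0.23 that did not pass (95% interval -0.49 to 0.02, limma adjusted p = 0.591).

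Uhrf1 was lower relative to Dnmt1 in each perampanel library than in any control. In controls 1 to 3 the log2 ratio of Uhrf1 to Dnmt1 was -1.87, -1.66 and -1.02, and in perampanel 1 to 3 it was -2.34, -2.93 and -3.27. The group means differed by -1.34 (-1.51 ± 0.44 against -2.85 ± 0.47, SD, n = 3 each), larger than the spread between replicates, with a two-sided exact permutation p of 0.1, the smallest that 3 against 3 allows (0.2 adjusted over 4 ratios).

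**Figure D2:**
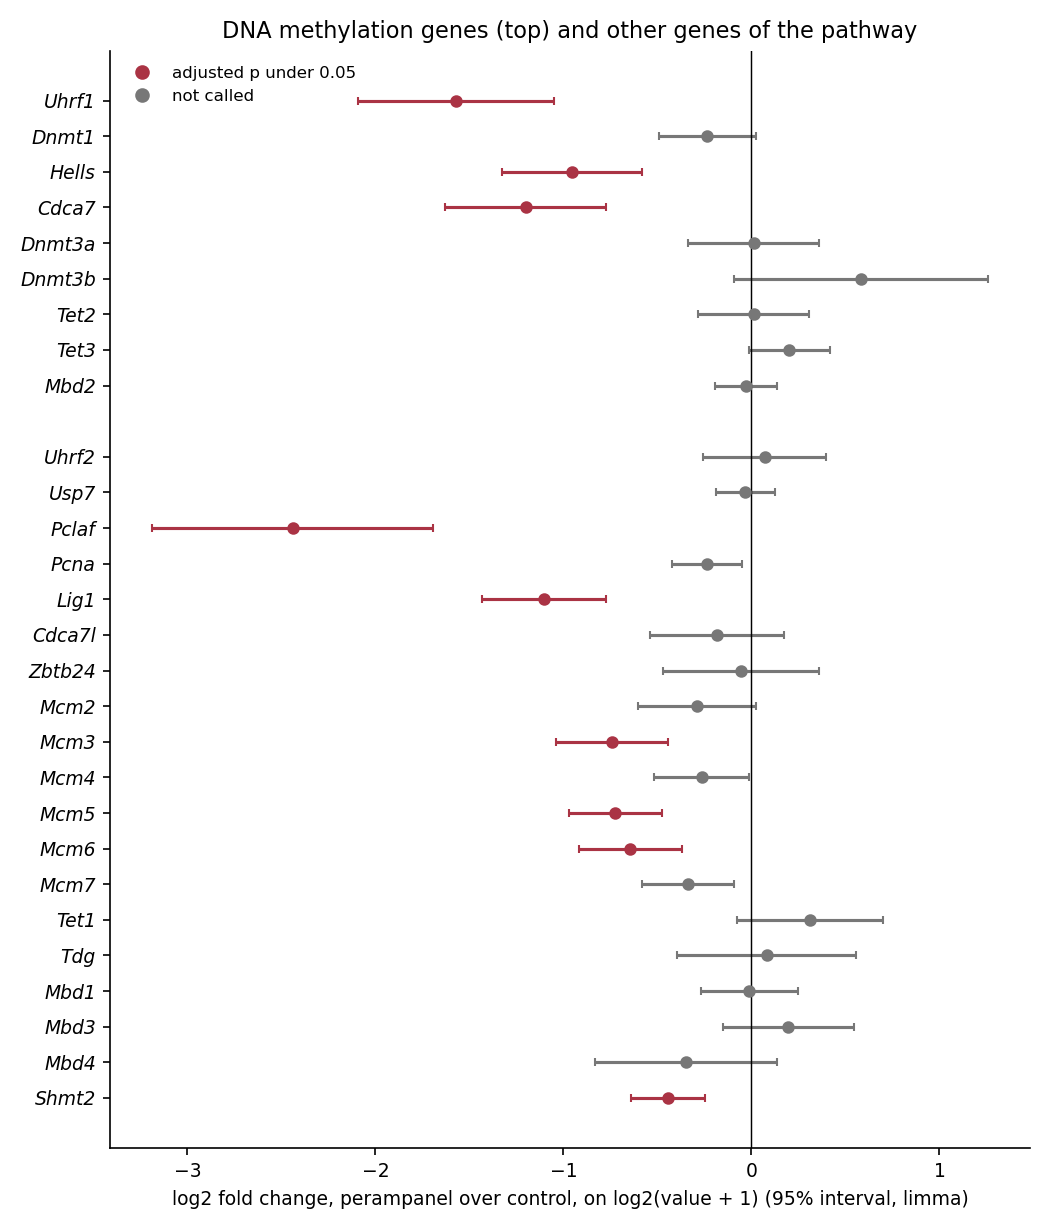
Log2 fold change of perampanel over control on the log2(value + 1) scale (horizontal axis) with the 95% interval from limma. The upper block holds the 9 DNA methylation genes and the lower block 19 other listed genes, among them MCM helicase genes and Shmt2. Red marks an adjusted p under 0.05: Uhrf1, Hells and Cdca7 above, and Pclaf, Lig1, Mcm3, Mcm5, Mcm6 and Shmt2 below.

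Promoter sequences of the 3 genes that fell and of Dnmt1 are shown because the E2F transcription factors, which switch on many S phase genes, bind a known site in such promoters. RefSeq promoter windows (GRCm38.p6, 250 bases before to 50 after a start) were searched on both strands for the E2F motifs TTTCCCGC, TTTCGCGC, TTTGCCGC and TTTGGCGC, which may overlap one another. Of 32851 windows, 2.26% held a match. All the motifs contain CpG, and this share was not matched for the CpG count of the windows. Windows were at hand for 8 of the 9 genes, 13 in all, and 4 of them held a match, 1 each for Uhrf1, Hells, Cdca7 and Dnmt1. Below is the window with most CpG pairs for each of these genes, from chr17:56304063-56304362 (plus strand) for Uhrf1, chr19:38930740-38931039 (plus) for Hells, chr2:72475969-72476268 (plus) for Cdca7 and chr9:20952574-20952873 (minus) for Dnmt1, written 5′ to 3′ with motif matches in capitals.
Uhrf1: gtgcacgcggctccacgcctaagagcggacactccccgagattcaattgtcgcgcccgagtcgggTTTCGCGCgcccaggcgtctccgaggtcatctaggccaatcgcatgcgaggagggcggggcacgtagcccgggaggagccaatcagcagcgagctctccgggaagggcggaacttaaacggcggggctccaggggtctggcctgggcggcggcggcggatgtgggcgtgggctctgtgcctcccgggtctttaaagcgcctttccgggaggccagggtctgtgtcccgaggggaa
Hells: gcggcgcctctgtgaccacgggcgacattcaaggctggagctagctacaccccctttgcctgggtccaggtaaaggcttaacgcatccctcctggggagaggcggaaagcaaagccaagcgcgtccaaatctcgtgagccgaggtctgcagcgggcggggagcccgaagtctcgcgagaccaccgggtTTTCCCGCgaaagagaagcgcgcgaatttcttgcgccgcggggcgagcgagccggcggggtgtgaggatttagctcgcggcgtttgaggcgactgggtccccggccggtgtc
Cdca7: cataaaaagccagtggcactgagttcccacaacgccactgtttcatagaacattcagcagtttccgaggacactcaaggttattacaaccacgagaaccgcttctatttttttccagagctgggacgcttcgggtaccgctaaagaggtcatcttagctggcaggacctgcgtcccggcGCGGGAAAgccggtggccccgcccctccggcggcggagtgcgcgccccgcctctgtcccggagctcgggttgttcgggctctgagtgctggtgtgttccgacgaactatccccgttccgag
Dnmt1: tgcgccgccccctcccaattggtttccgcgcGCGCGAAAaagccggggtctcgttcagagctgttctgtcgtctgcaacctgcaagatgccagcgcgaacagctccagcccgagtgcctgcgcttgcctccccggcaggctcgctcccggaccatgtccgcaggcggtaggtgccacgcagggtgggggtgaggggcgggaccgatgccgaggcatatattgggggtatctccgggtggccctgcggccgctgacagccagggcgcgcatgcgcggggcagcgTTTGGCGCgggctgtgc

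The match was TTTCGCGC in Uhrf1 and TTTCCCGC in Hells, both on the strand of the gene, and TTTCCCGC on the opposite strand in Cdca7. Dnmt1, which did not pass the test, held 2 matches, TTTCGCGC on the opposite strand and TTTGGCGC on its own. The windows of Dnmt3a, Dnmt3b, Tet2 and Tet3 held no match. The printed windows hold 33 CpG pairs in Uhrf1, 34 in Hells, 26 in Cdca7 and 33 in Dnmt1, against a median of 7 over all windows. Windows of the genes without a match held 57 in Tet2, 46, 47 and 18 in Dnmt3a, 30 in Dnmt3b and 22 in Tet3. A high CpG count was thus not particular to the genes with a match. A match is a description of letters, and binding was not measured.

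Genes of the replicative helicase, listed apart from the DNA methylation genes, were followed in the same libraries. The 6 genes of the MCM helicase, which unwinds DNA at the fork, all had a negative log2 fold change with a median of -0.49. By limma 3 of the 6 fell, where 0.683% of all tested genes were called as lower. Mcm5 fell from 163 ± 15.1 to 98.0 ± 0.828 normalized read counts (SD, n = 3 each; log2 -0.72). Mcm3 (-0.74) and Mcm6 (-0.64) fell too, and Mcm2, Mcm4 and Mcm7 were at -0.29, -0.26 and -0.34. Without control 1 limma no longer called Mcm3 (log2 -0.65, adjusted p = 0.0736) or Mcm6 (-0.60, adjusted p = 0.0677), and without control 2 not Mcm6 (-0.65, adjusted p = 0.0627).

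Measured against the summed MCM genes of the same library, Uhrf1 came to 5.21%, 6.21% and 8.08% in controls and 4.46%, 2.53% and 2.16% under perampanel. Hells came to 8.31%, 7.43% and 9.67% in controls and 5.54%, 6.25% and 6.29% under perampanel. Cdca7 came to 9.87%, 6.65% and 10.8% in controls against 4.11%, 6.08% and 6.09% under perampanel. Uhrf1, Hells and Cdca7 were therefore lower than every control on this scale as well. The MCM genes fell less than the 8 cycling markers, with a median log2 fold change of -0.49 against -1.44. Shares of the summed cycling markers were not computed, so the separation is given for the MCM sum only. Dnmt1 came to 19.3%, 19.8% and 16.5% in controls and 23.4%, 20.4% and 22.4% under perampanel. The shares of Dnmt3a, Dnmt3b, Tet2, Tet3 and Mbd2 were likewise above every control in all perampanel libraries, so a higher share was not particular to Dnmt1. The summed MCM genes themselves were lower, at 279 to 296 CPM (recovered reads scaled to the library total) under perampanel against 374 to 443 in controls. These shares are descriptions, and the part of cell cycling in the falls was not tested.

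Across the perampanel libraries, Hells and Cdca7 had another order than the cycling markers, and Uhrf1 had the same order as they did. Perampanel 1 had the lowest Hells and Cdca7 of the 6 libraries. The mean of Mcm2 to Mcm7 shared the order of Hells and Cdca7 and hardly varied. It was at -0.27, -0.23 and -0.24 in perampanel 1 to 3, as log2 distance from its mean over all libraries. The mean of 7 cycling markers in perampanel 1, taken as its log2 distance from the mean over all libraries, was 0.16, the highest of the perampanel libraries and below all controls (0.51 to 1.11). In perampanel 3 the mean of 7 cycling markers was 2.10 below its mean over all libraries on the log2 scale, whereas Hells and Cdca7 were each 0.42 below theirs. That marker mean rests in part on very few reads. Ccna2, Cdk1 and Ccnb1 had 3, 3 and 2 reads in perampanel 3, at or below the floor, and Mki67 had 18. Uhrf1 was lowest in perampanel 3, at 1.19 below.

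**Figure D3:**
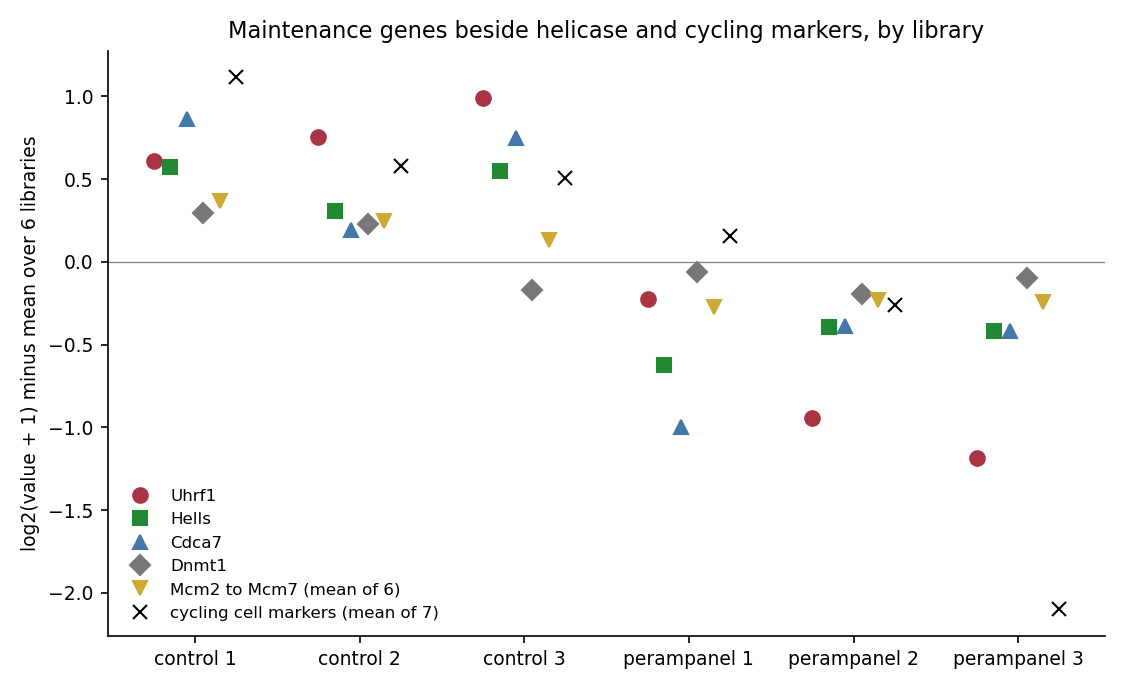
Level in each of the 6 libraries as log2(value + 1) minus the mean over the libraries (vertical axis), for Uhrf1, Hells, Cdca7 and Dnmt1, the mean of Mcm2 to Mcm7 and the mean of 7 cycling cell markers. In perampanel 3 the cycling markers lie at -2.10 and Hells and Cdca7 at -0.42 each. Of the markers, Ccna2, Cdk1 and Ccnb1 had only 3, 3 and 2 reads in that library.

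Among 15 tested partners of hemimethylation and replication, of 16 listed, 2 fell and none rose by limma, against 0.683% and 0.419% of tested genes. The median log2 fold change of the 15 was -0.063. The log2 fold change was negative in 12 of 15. An unadjusted limma p under 0.05 was seen for 5 of 15, namely Pclaf, Lig1, Pcna, Rbbp4 and Rbbp7, against 9.33% of all tested genes, and these 5 were also the ones lower than every control without overlap, against 6.9%. Pclaf, a PCNA partner that UHRF1 ubiquitinates to bring in DNMT1, was at 168, 120 and 175 normalized read counts in controls and at 40.8, 58.5 and 8.01 under perampanel. Its log2 fold change was -2.44 ± 0.36 (SE), called by limma (adjusted p = 0.000441), and the log2 fold change was -1.62 without perampanel 3, the library with 7 reads. DESeq2 did not call Pclaf (log2 -2.10, adjusted p = 0.152). Lig1, the DNA ligase that seals the new strand and whose methylated form is bound by UHRF1, was at 96.5, 108 and 101 in controls and at 55.1, 46.4 and 40.1 under perampanel, clear of the controls in all 3 libraries (log2 -1.10 ± 0.16, limma adjusted p = 0.000306).

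Other partners did not pass. Rbbp4 and Rbbp7, histone-binding proteins of chromatin assembly and deacetylase complexes, were at 450 ± 16.4 and 298 ± 35.7 normalized read counts in controls and 396 ± 33.7 and 253 ± 3.39 under perampanel (SD, n = 3 each; limma adjusted p = 0.443 and 0.411). Pcna, the replication clamp, was at 328 ± 33.5 and 278 ± 13.8 normalized read counts (SD, n = 3 each), below the controls (log2 -0.24, 95% interval -0.42 to -0.05, limma adjusted p = 0.324). Uhrf2, the paralog of Uhrf1, was at 0.07 (-0.26 to 0.40) and Usp7, a deubiquitinase that stabilises UHRF1 and DNMT1, at -0.03 (-0.19 to 0.12) on the log2 scale. Cdca7l, the paralog of Cdca7, was at -0.18 (-0.54 to 0.17), and Zbtb24, a transcription factor that activates Cdca7, at -0.06 (-0.47 to 0.36). The interval of each paralog lay above that of the gene that fell, which ended at -1.05 for Uhrf1 and -0.77 for Cdca7, and the difference itself was not tested.

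The 5 genes most like Uhrf1 in pattern were chosen by Pearson r of log2 values over the 6 libraries among 5517 other genes averaging 50 or more. They were Osbpl11 (r = 0.99), Lig1 (0.98), Spcs3 (0.98), Elovl1 (0.97) and Tmem147 (0.97). Apart from Lig1 none was called, and their log2 fold changes were -0.45, -0.21, -0.21 and -0.20. Among the 9 genes themselves Hells and Cdca7 had r = 0.98 and Uhrf1 and Hells r = 0.86. All these coefficients include the group difference, which the 6 points share, and are descriptions.

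The de novo methyltransferases showed no called change. Dnmt3a (chromosome 12, 3806007 to 3914443, plus strand) was at 93.5, 66.7 and 72.6 normalized read counts in controls and at 62.2, 76.6 and 97.3 under perampanel, so both groups spanned the same range. Its log2 fold change was 0.01 (95% interval -0.34 to 0.36, limma adjusted p = 0.991). Dnmt3b (chromosome 2, 153649450 to 153687730, plus strand) was at 8.86, 14.6 and 20.2 in controls and at 17.3, 25.2 and 21.7 under perampanel, from 47 and 61 reads in all. Perampanel 1 lay below control 3, and the log2 fold change of 0.58 did not pass (95% interval -0.10 to 1.26, limma adjusted p = 0.620). Omitting each library in turn moved it between 0.29 and 0.84, and none of the omissions gave a call.

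The within-library ratio of Dnmt1 to Dnmt3a was 0.97 ± 0.27 on the log2 scale in controls and 0.72 ± 0.34 under perampanel (SD, n = 3 each), a difference within the spread between replicates (two-sided exact permutation p = 0.4, and 0.4 adjusted over 4 ratios). Dnmt3l, the cofactor of de novo methylation in germ cells, had no read in any library. None of 10 tested genes that guide de novo methylation, of 13 listed, was called by limma or edgeR, with a median log2 fold change of -0.10. DESeq2 gave an adjusted p to only 7 of the listed genes and called none of them. An unadjusted limma p under 0.05 was seen for 3 of the 10, against 9.33% of all tested genes. These went both ways, with Nsd3 at 0.27 (limma adjusted p = 0.0649), Nsd2 at -0.79 (0.131) and Cbx5 at -0.39 (0.342) on the log2 scale.

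The oxidases did not pass either. Tet2 (chromosome 3, 133463679 to 133545139, minus strand) was at 83.7, 92.2 and 77.2 normalized read counts in controls and at 87.7, 90.8 and 76.7 under perampanel (log2 0.01, 95% interval -0.28 to 0.31, limma adjusted p = 0.989). Both groups spanned nearly the same range. Tet3 (chromosome 6, 83362373 to 83459084, minus strand) was at 163, 195 and 171 in controls and at 207, 210 and 191 under perampanel, where perampanel 3 lay just below control 2. Its means were 177 ± 16.8 and 203 ± 10.04 (SD, n = 3 each; log2 0.20, 95% interval -0.01 to 0.42, limma adjusted p = 0.582).

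Tet1, the remaining oxidase of the family, was at 41.9 ± 7.46 and 51.8 ± 3.01 normalized read counts (log2 0.31, 95% interval -0.08 to 0.70). In controls the log2 ratio of Tet2 to Tet3 stood at -0.96, -1.08 and -1.14, and with perampanel at -1.23, -1.20 and -1.31. It lay lower in all 3 perampanel libraries, by 0.19 in the mean, with a two-sided exact permutation p of 0.1, the smallest possible, and 0.2 adjusted over the 4 ratios. Of 11 tested genes of demethylation, out of 16 listed, none was called by limma or edgeR. DESeq2 gave an adjusted p to only 2 of the listed genes and called neither. An unadjusted limma p under 0.05 was seen for 1 of the 11, against 9.33% of all tested genes. Tdg, the glycosylase that removes oxidised cytosines, was at 0.08 (-0.39 to 0.56) on the log2 scale.

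Mbd2, the methyl-CpG reader of the NuRD deacetylase complex, which in mouse T cells keeps helper cytokine genes silent (chromosome 18, 70568189 to 70626131, plus strand), was at 459, 424 and 442 normalized read counts in controls. Under perampanel it was at 400, 421 and 481, below and above the controls alike. The log2 fold change of -0.03 had the narrowest interval of the 9 genes (-0.19 to 0.13, limma adjusted p = 0.949). Among the other readers the differences were -0.01 for Mbd1, 0.20 for Mbd3, which replaces MBD2 in part of the NuRD complexes, and -0.35 for Mbd4, a glycosylase that binds methyl-CpG, on the log2 scale. None of the 16 readers and NuRD genes tested was called by limma or edgeR, nor any of the 11 to which DESeq2 gave an adjusted p. None of the 16 had an unadjusted limma p under 0.05. Rbbp4 and Rbbp7, histone-binding subunits of NuRD that were counted among the replication partners, did (0.0277 and 0.0236), at log2 fold changes of -0.18 and -0.23.

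S-adenosylmethionine, the methyl donor, depends on genes of which 12 were tested, with a median log2 fold change of -0.081. By limma 1 of the 12 fell and none rose, against 0.683% and 0.419% of all tested genes. That gene was Shmt2, the mitochondrial enzyme that takes one-carbon units from serine (log2 -0.44 ± 0.10, SE, limma adjusted p = 0.0122). Without control 1 it was at -0.38 (limma adjusted p = 0.129) and without perampanel 2 at -0.40 (adjusted p = 0.0794), and was then not called.

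Per length of exon the order of the 9 genes differed between the groups. On the scale of CPM per kilobase of exon, Mbd2 was highest in both (68.4 ± 2.93 in controls and 66.4 ± 6.41 under perampanel, SD, n = 3 each). In controls Cdca7 (11.6 ± 2.73) and Dnmt1 (10.3 ± 1.70) came next and overlapped, followed by Uhrf1 (6.16 ± 0.859), Tet3 (5.26 ± 0.480) and Hells (4.78 ± 0.497), each of which overlapped with its neighbour. Tet2 (2.49 ± 0.215), Dnmt3a (2.32 ± 0.428) and Dnmt3b (1.42 ± 0.554) were lowest, and Tet2 and Dnmt3a overlapped.

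Under perampanel Uhrf1, which was number 4 of 9 in controls, had the lowest mean (2.05 ± 0.779) and overlapped with Dnmt3b (2.07 ± 0.395), Dnmt3a (2.33 ± 0.522), Hells (2.40 ± 0.226) and Tet2 (2.48 ± 0.226). Dnmt1 (8.58 ± 0.339), Tet3 (5.97 ± 0.317) and Cdca7 (4.88 ± 1.13) lay between these and Mbd2, and Tet3 (from 5.62) and Cdca7 (up to 5.63) overlapped. Exons of all annotated transcripts were summed, which understates the level of genes with many transcripts, such as Tet2 (16.87 kb) and Dnmt3a (16.642 kb).

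**Figure D4:**
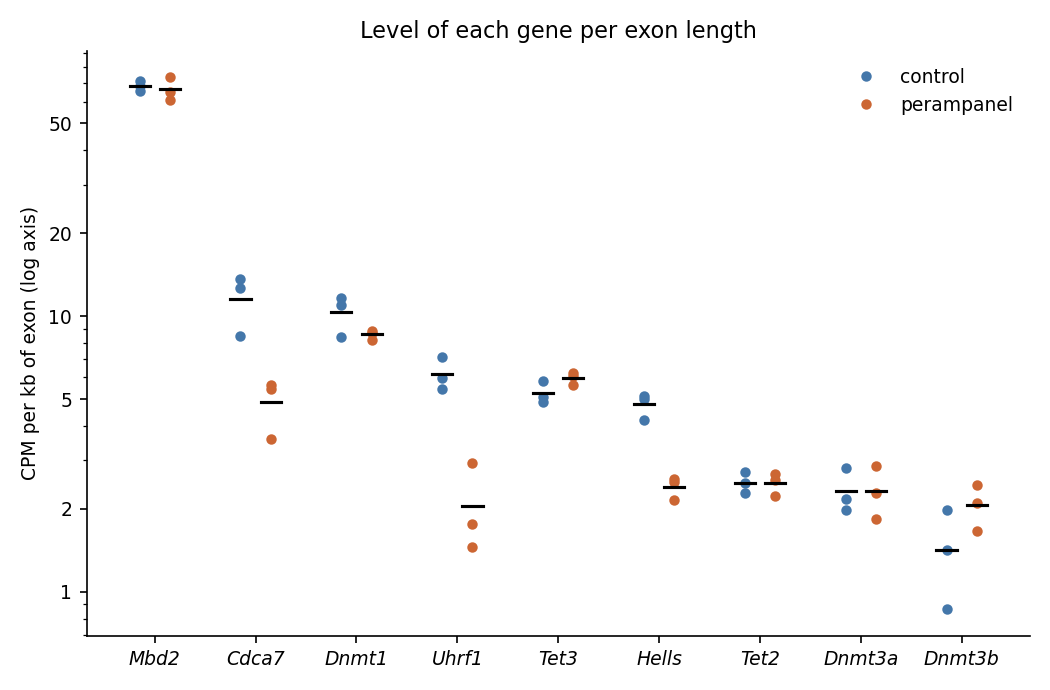
CPM per kilobase of exon (vertical axis, logarithmic) for the 9 genes, ordered by their control mean. Points are libraries and bars are means of 3 libraries; Uhrf1 goes from 6.16 in controls to 2.05 under perampanel.

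Leaving out single libraries did not end any of the 3 calls by limma. The adjusted p over these 6 omissions reached at most 0.0135 for Uhrf1, 0.0482 for Hells and 0.0314 for Cdca7. The log2 fold change ran from -1.04 to -0.88 for Hells and from -1.40 to -1.003 for Cdca7. The 6 other genes were called in none of them.

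**Figure D5:**
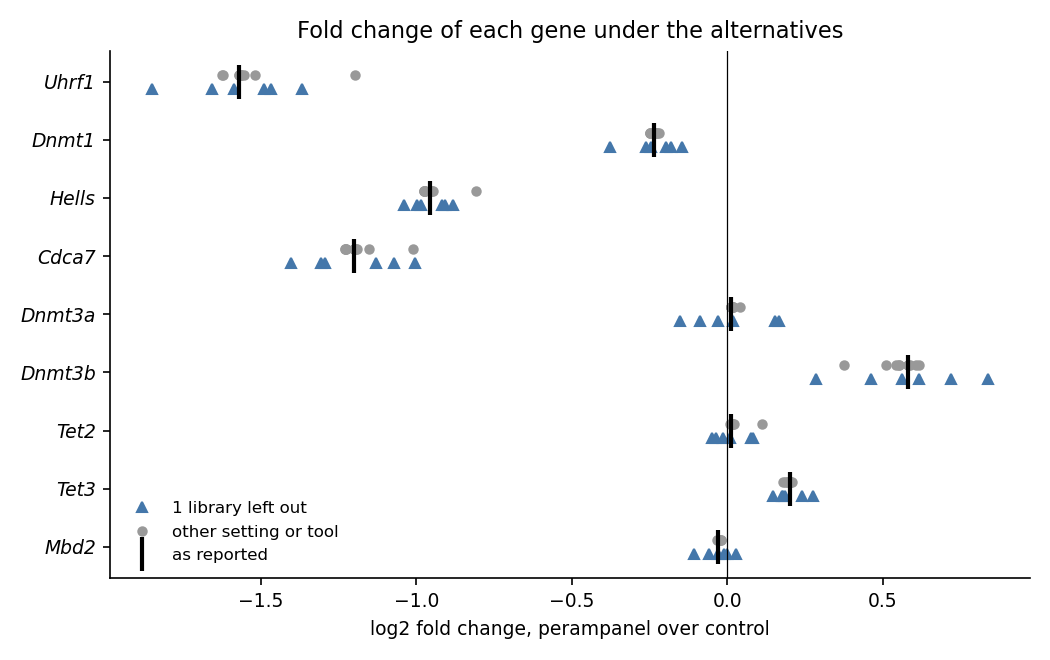
Log2 fold change of perampanel over control (horizontal axis) of the 9 genes as reported (bars), with 1 library left out (triangles) and under other settings or tools (circles). Uhrf1, Hells and Cdca7 stay below 0 in each, and Dnmt3a, Tet2 and Mbd2 lie on both sides of 0.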

How the data were processed

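Poly(A) RNA of 6 mice was sequenced with a NEBNext Ultra II kit (per the labels' protocols) whose name is that of a version without strand marking, so overlapping genes cannot be told apart. The authors deposited a signal per gene and sample, read counts divided by a size factor, with their log2 fold changes, p-values and a Wald score, which has the reverse sign of the fold in each of 19321 genes. The submitters' processing notes name DESeq2, DESeq and GRCm38, and the aligner is not given in the sources used here. Every non-zero value was a whole multiple of its sample's smallest value (100% within 1e-06), which gave back reads.

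The test was limma-trend (version 3.58.1 in R 4.3.3) of treatment alone on log2(value + 1), for genes averaging 10 or more, with Benjamini-Hochberg adjustment over 9076 genes. Fold changes on this scale understate the change of low genes. Alternatives were TMM and quantile scaling, other filters and pseudocounts, a block for the replicate number, omission of each library, thinning to 1779724 reads, edgeR 4.0.16 and DESeq2 1.42.0 on recovered reads. The fit was tested on simulated data. Chi-square per degree of freedom within groups was 1.56 to 1.80, so no libraries were merged. The labels name 3 animals a group.

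The 9 genes and all lists were chosen with earlier results of these data known. Named were the 9 genes, called genes of the lists (up to 6 each), 14 fixed partners and the 5 genes most like Uhrf1; an item that the rule takes is not reported here. GENCODE mouse release 21 (GRCm38), where 22101 names matched once, gave positions and exon lengths. Exons of Dnmt3a and Tet2 share 133 and 43 bases with antisense genes that have no reads.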

Additional observations from a re-analysis of the deposited data

How the results depend on the processing

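The 3 calls among the 9 genes held under TMM and quantile scaling, pseudocounts of 0.1 and 10, no filter, thinned libraries, edgeR and each library left out (3 to 3 called). With a minimum mean of 50 there were 2 called of 7 tested, since Uhrf1 was not among them. DESeq2 called 0 of the 3 to which it gave an adjusted p, with none of these 3 at an unadjusted p under 0.05, and 2 of 9 without its filter. Over all genes 100 were called, against 179 with no filter, 50 by DESeq2, 28 by DESeq2 without its filter, and 43 to 116 with single libraries left out (43 without control 1 and 55 without control 2). The replicate number as a block gave 103 genes and 3 of the 9; same-numbered libraries correlated by only 0.016 to 0.033 in their deviations, so the numbers were not taken as pairs, and each library did correlate best with its own number. No scaling moved the median of all genes by over 0.1.

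Directions changed for genes that were not called. With single libraries left out, the log2 fold change ran from -0.15 to 0.17 for Dnmt3a, -0.050 to 0.084 for Tet2, -0.11 to 0.027 for Mbd2, -0.087 to 0.30 for Uhrf2, -0.082 to 0.091 for Mbd1, -0.026 to 0.23 for Tdg, -0.20 to 0.080 for Zbtb24 and -0.064 to 0.0067 for Usp7. Mbd1 was at 0.00031 by edgeR and at 0.0095 in thinned libraries. The cause was not tested. The 4 ratios kept their direction under every alternative run for them, and the block gave an exact sign-flip p of 0.25 for Uhrf1 to Dnmt1. Depth limits Dnmt3b most, with 9 to 25 reads a library.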

Other observations

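A pair of listed genes below the filter had fewer reads under perampanel; they were picked after their values were seen. Gadd45g, a stress-induced gene linked to demethylation, had 7, 15 and 10 reads in controls and 4, 1 and 3 under perampanel. Suv39h2, a histone H3 methyltransferase of heterochromatin, had 5, 5 and 8 reads in controls and 0, 2 and 1 under perampanel. With no filter on low values limma called neither (adjusted p = 0.291 and 0.239).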
